A study of Mus musculus with 24 samples.

Results

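The genes described here were silent in the fat of exactly 1 of 4 mouse strains and expressed in the fat of the other 3. They were chosen on the 12 libraries of mice fed the standard diet, with levels in CPM (counts per 1000000 counts of the library). A gene qualified where it lay below 0.5 CPM in all 3 libraries of 1 strain and at 3 CPM or more in all 9 libraries of the other strains. Of 37991 gene identifiers, 34 met this rule. CAST/EiJ was the silent strain for 18 of them, WSB/EiJ for 8, NZO/HiLtJ for 4 and C57BL/6J for 4. Silent stands for a level under that threshold, which was 30.9 to 42.0 counts in a standard-diet library, and not for a level of 0. The standard-diet values chose the genes, so they are given as a description, and tests use the mice fed the high-fat diet.

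RNA-seq was run on inguinal subcutaneous fat pads of 24 female mice from The Jackson Laboratory, killed at 26 weeks of age. Each strain gave 3 mice fed a diet high in fat (45% of its energy) and sucrose (34% by weight), called high-fat here, and 3 fed the standard diet, in which fat gave 17% of the energy. Both diets began at 4 weeks of age. C57BL/6J is a widely used laboratory strain, NZO/HiLtJ is prone to obesity and diabetes, and CAST/EiJ and WSB/EiJ were derived from wild mice. All are inbred, and the labels name no engineered allele or drug in any group.

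Libraries held 47651641 to 73582401 counts on the high-fat diet and 61750533 to 84009032 counts on the standard diet. Adipoq, the adipocyte gene for adiponectin, checked the tissue label. It lay at 4.75 CPM in CAST/EiJ high-fat replicate 1 and at 621 CPM or more in the other 23 libraries, so the defining fat marker was nearly missing in that 1 library. The summed level of 10 adipocyte markers was 83.8 CPM there, against 21570 and 24480 CPM in the other CAST/EiJ high-fat libraries. Its 8 epithelial markers summed to 1008 CPM, against 37.0 and 39.3 CPM in those libraries, and its 5 smooth muscle markers to 10480 CPM, against 128 and 210.2 CPM. Counts and named calls that changed without this library are given both ways, and so are the CAST/EiJ values of Ms4a7, Tmem45b, Gchfr and Tdpx-ps1. Leaving it out also raised the share of all genes called lower, to 3.13% in C57BL/6J, 13.9% in NZO/HiLtJ, 14% in CAST/EiJ and 15.5% in WSB/EiJ. The share called higher rose too, to 7.26%, 18.4%, 14.5% and 20.3% in the same order. Other libraries, with Adipoq at 621 CPM or more, also held markers of other tissues. CAST/EiJ standard-diet replicate 2 had a skeletal muscle sum of 1804 CPM, against 12.9 and 2.88 CPM in replicates 1 and 3. Liver sums were 668.5 and 1155 CPM in NZO/HiLtJ standard-diet replicates 1 and 2, and 110 CPM in replicate 3. On the high-fat diet, WSB/EiJ replicates had smooth muscle sums of 1684, 1044 and 4958 CPM. The part of these tissues in the results was not tested.

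Inbred strains are fixed for different alleles at many loci, and a null allele, a lost gene copy or a changed promoter can leave 1 strain without a transcript that the others make. Processed pseudogenes are copies of a spliced messenger RNA put back into the genome, and they often differ between strains. Such a copy shares most of its sequence with its parent gene, so a read from the parent may be counted on the copy. A count table alone does not tell a gene that is not transcribed from reads that were not assigned to it, and these readings cannot be told apart here.

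The silent genes fell into a few kinds. The annotation (GENCODE M21) held 23 of the 34, and these are the ones with a symbol. Among them were 12 processed pseudogenes (52.2%), 8 protein-coding genes (34.8%), a polymorphic pseudogene, a transcribed unprocessed pseudogene and a long intergenic RNA. Of the 11347 annotated genes at 3 CPM or more in every standard-diet library of at least 3 strains, 4.93% were processed pseudogenes and 93.3% were protein coding. Only 67.65% of the silent genes had an annotation, so this comparison is void as a check and the shares are a description.

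Silent in C57BL/6J were H2-Ea-ps, Gchfr, Gm12508 and Gm11533. All of these are annotated in GENCODE M21, whose reference assembly is that of C57BL/6J itself. NZO/HiLtJ was silent for Gm13268, Gm7251, Gm6030 and Gm8482, which are all processed pseudogenes. CAST/EiJ was silent for Fam213b, Iigp1, Tmem45b, Ms4a7, Zfp783, Gm454, Gm7204, Gm13092 and 10 identifiers without a symbol. WSB/EiJ was silent for Cyp4f16, Aoah, Methig1, Gm15793, Gm4853, Gm10167, Tdpx-ps1 and 1 identifier without a symbol. Of the CAST/EiJ identifiers without a symbol, 9 had nearly equal counts in every library and are taken up as a set further on.

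**Figure D1:**
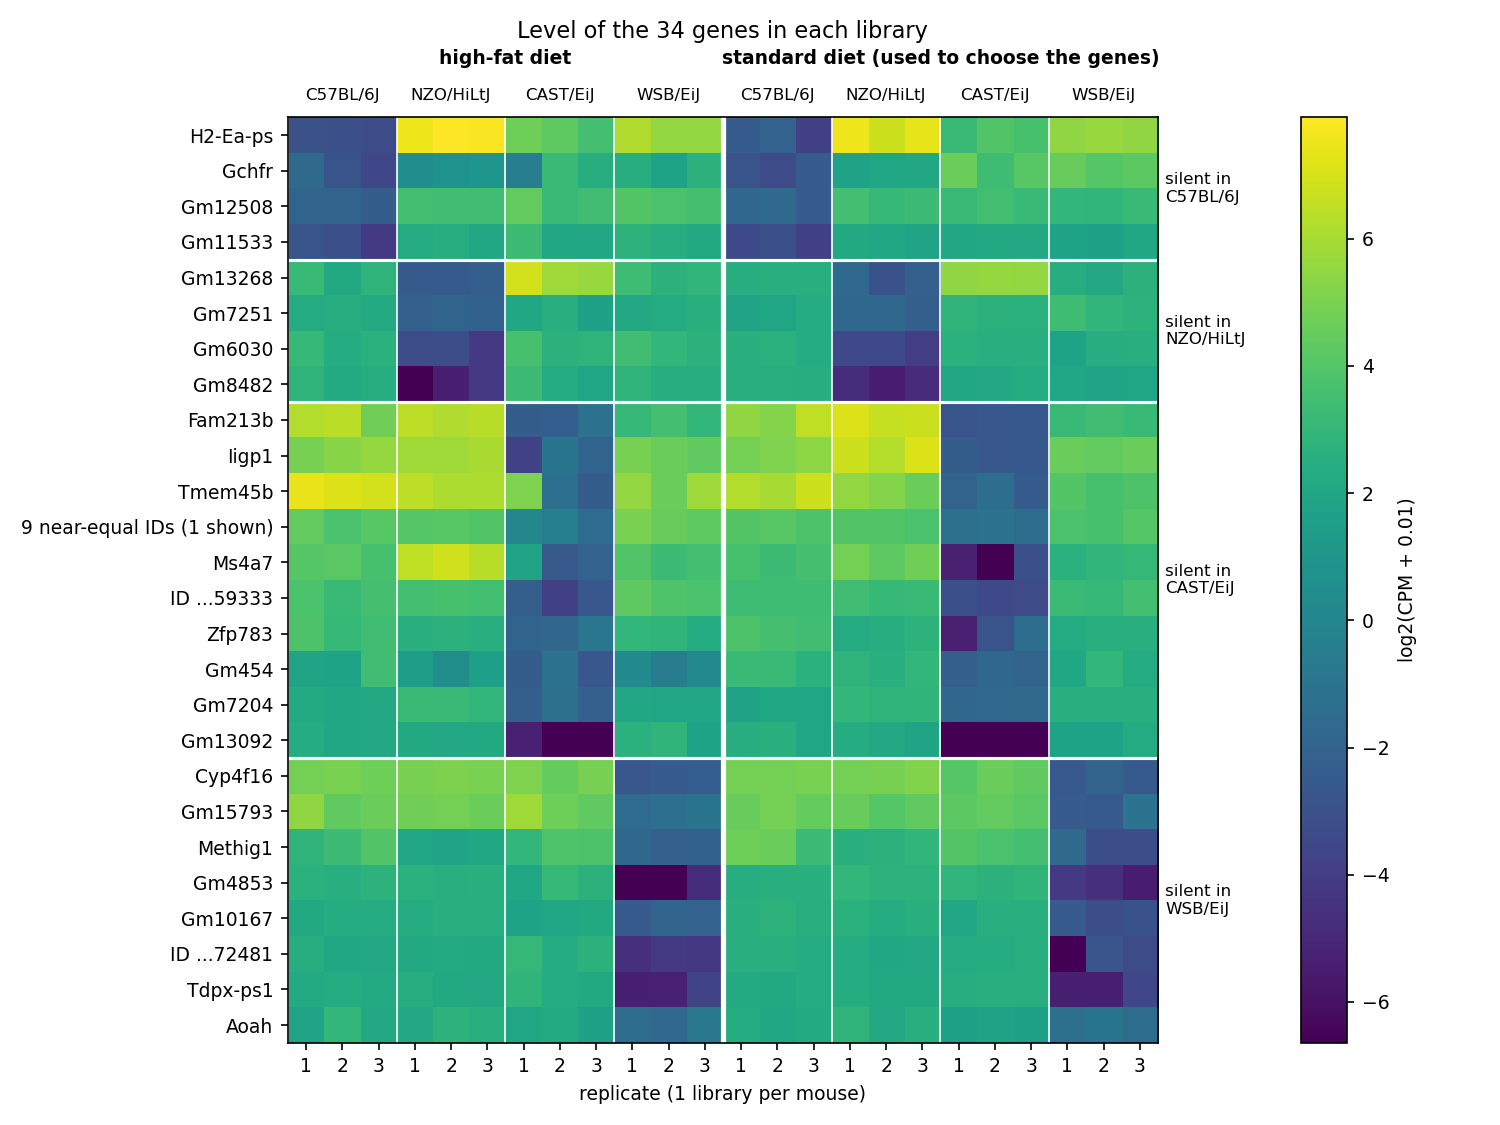
Level of the 34 genes (26 rows, with 1 identifier shown for the set of 9 nearly equal ones) in each of the 24 libraries (columns, by strain, diet and replicate), as CPM on a log colour scale. Each gene is dark in 1 strain on the standard diet by the rule, and CAST/EiJ high-fat replicate 1 stands apart for Tmem45b at 34.5 CPM and Ms4a7 at 3.55 CPM.

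The thresholds ran close to a few genes. Nearest inside the silent threshold was Aoah, with a highest WSB/EiJ level of 0.485 CPM, followed by members of the near-equal set at 0.453 CPM. Just outside it were Xlr3b at 0.544 CPM in WSB/EiJ, Aspg at 0.674 CPM in C57BL/6J and Adamts16 at 0.713 CPM in CAST/EiJ. At the threshold of 3 CPM, the lowest levels inside were 3.04 CPM for Aoah, 3.26 CPM for Gm11533 and 3.29 CPM for Gchfr. Outside lay Eif5al3-ps at 2.86 CPM, Cd300ld at 2.85 CPM and St6galnac5 at 2.85 CPM.

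In the 12 high-fat libraries, which come from other mice and had no part in the choice, 33 of the 34 genes were lower in their silent strain. All 34 passed the filter on low counts. The test was the quasi-likelihood F test of edgeR on each strain against the mean of the other 3, with Benjamini-Hochberg adjustment over 19501 genes and a threshold of 0.05. In C57BL/6J 4 of 4 genes were called lower, where 1.41% of all genes tested were. In NZO/HiLtJ 4 of 4 were called lower, beside 6.18% of all genes. For CAST/EiJ the count was 17 of 18, or 9 of 10 with a set of 9 nearly equal identifiers counted once, beside 9.69% of all genes, and for WSB/EiJ 8 of 8, beside 5.71%. None of the 34 was called higher in its silent strain, where 3.17%, 11.6%, 9.05% and 9.61% of all genes were called higher in the strains in this order. The median log2 difference was -5.78 for the C57BL/6J genes, -6.50 for the NZO/HiLtJ genes, -4.69 for the CAST/EiJ genes (-4.60 with the set counted once) and -6.65 for the WSB/EiJ genes. Over all genes tested the medians were -0.04, -0.06, 0.05 and 0.05 in the same order. Without CAST/EiJ high-fat replicate 1, 34 of 34 were called lower, and the gene gained was Tmem45b.

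**Figure D2:**
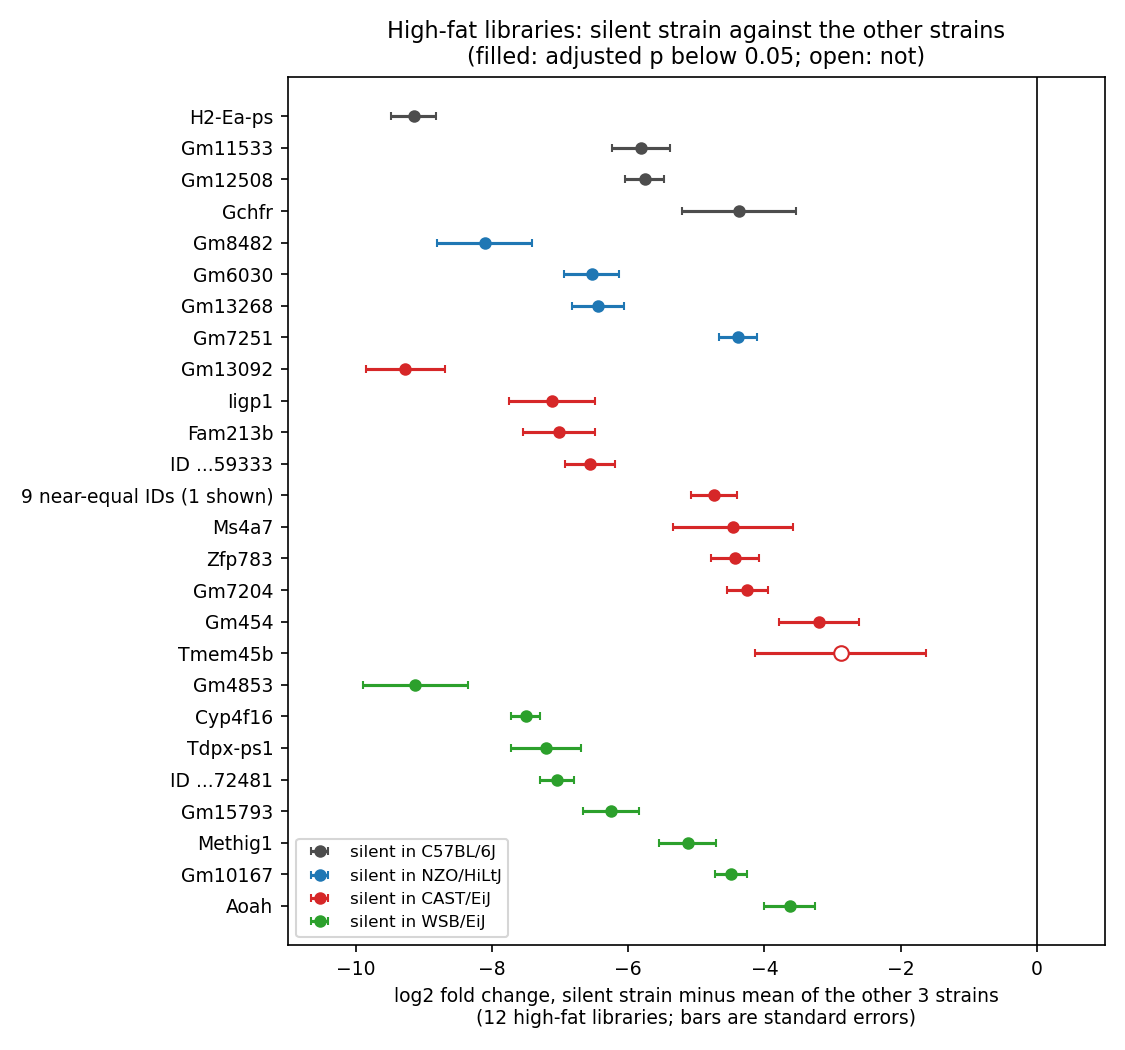
Log2 fold change of each of the 34 genes in its silent strain minus the mean of the other 3 strains (horizontal axis, bars are standard errors) in the 12 high-fat libraries, coloured by silent strain. The differences ran from -9.28 for Gm13092 to -2.88 for Tmem45b, the open symbol that missed the adjusted p of 0.05.

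The silence itself was narrower on the high-fat diet than the calls. All 3 high-fat libraries of the silent strain stayed below 0.5 CPM for 20 of the 34 genes, which were 4 of 4 in C57BL/6J, 4 of 4 in NZO/HiLtJ, 5 of 18 in CAST/EiJ (5 of 10 with the near-equal set counted once) and 7 of 8 in WSB/EiJ. All 9 other libraries stayed at 3 CPM or more for 32 of the 34, the exceptions being Gchfr and Gm454. Both parts of the rule were met again by 18 of the 34 genes, or 52.94%. Over all 37991 identifiers, the share that met the rule on the high-fat libraries was 0.0079% for C57BL/6J, 0.0105% for NZO/HiLtJ, 0.0132% for CAST/EiJ and 0.0184% for WSB/EiJ. That list held 19 genes, and 94.74% of them were among the 34. Without CAST/EiJ high-fat replicate 1, 22 stayed below 0.5 CPM and 20 met the whole rule.

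For 33 of the 34 genes every high-fat library of the silent strain lay below all 9 libraries of the other strains. The share of all genes tested with that pattern was 1.69% for C57BL/6J, 5.99% for NZO/HiLtJ, 6.9% for CAST/EiJ and 2.31% for WSB/EiJ. The count was 34 of 34 without CAST/EiJ high-fat replicate 1, beside 16.1% of all genes for CAST/EiJ. With the near-equal set counted once the 34 become 26, of which 20 stayed below 0.5 CPM, 18 met the whole rule, 25 were called lower and 25 were without overlap.

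Among the immune genes, H2-Ea-ps encodes the alpha chain of the class II molecule E, which presents peptides to T cells, and C57BL/6 mice have long been known to lack it. The high-fat libraries of C57BL/6J held 0.112, 0.108 and 0.0926 CPM. The others on that diet held 186, 240.1 and 224 CPM in NZO/HiLtJ, 25.9, 19.5 and 11.9 CPM in CAST/EiJ, and 70.9, 47.4 and 47.7 CPM in WSB/EiJ. So NZO/HiLtJ had the highest level, WSB/EiJ came next, CAST/EiJ was the lowest of the expressing strains, and no groups overlapped. The difference in C57BL/6J was -9.15 ± 0.33 on the log2 scale (edgeR quasi-likelihood test, adjusted p = 1.91e-07), the lowest of the 19501 genes in that comparison. On the standard diet the order of strains was the same, at 0.18, 0.233 and 0.0574 CPM in C57BL/6J against 9.08 to 187 CPM in the other 9 libraries.

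The gene for the partner beta chain, H2-Eb1, was not silent in C57BL/6J. It lay at 165, 217 and 165 CPM in its high-fat libraries, against 247, 310.4 and 301 CPM in NZO/HiLtJ, 32.3, 30.7 and 16.0 CPM in CAST/EiJ, and 1.76, 0.932 and 1.43 CPM in WSB/EiJ. The log2 difference of C57BL/6J from the mean of the others was 3.09 ± 0.21 (edgeR, adjusted p = 3.84e-05), a mean that the low WSB/EiJ values enter, while NZO/HiLtJ lay above C57BL/6J. WSB/EiJ therefore showed the reverse pair, with the alpha chain gene expressed and the beta chain gene near 1 CPM. H2-Aa encodes the alpha chain of the other class II molecule, A. As a ratio of counts not corrected for length, H2-Ea-ps was 0.0120% to 0.0744% of H2-Aa in the 6 C57BL/6J libraries, against 38.6% to 39.8% in NZO/HiLtJ, 38.8% to 55.2% in CAST/EiJ and 37.0% to 42.4% in WSB/EiJ. The level of H2-Ea-ps thus differed several-fold between expressing strains while its ratio to H2-Aa stayed within a narrow range in NZO/HiLtJ and WSB/EiJ.

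Iigp1 encodes an interferon-inducible GTPase that acts on the vacuoles of intracellular pathogens. In CAST/EiJ it lay at 0.0625, 0.503 and 0.252 CPM on the high-fat diet, against 30.4, 40.6 and 49.3 CPM in C57BL/6J mice, 56.7, 56.1 and 66.8 CPM in NZO/HiLtJ, and 30.9, 23.6 and 20.2 CPM in WSB/EiJ. Replicate 2 passed 0.5 CPM by a small margin, and the lowest library of the other strains still lay far above it. The log2 difference was -7.12 ± 0.63 (edgeR, adjusted p = 5.69e-05). Related GTPase genes behaved differently from one another in the same comparison. Gm4951 was lower in CAST/EiJ, with a log2 difference of -3.23 ± 0.46 (edgeR, adjusted p = 0.00107), while Irgm1 at -0.17 ± 0.39, Irgm2 at 0.08 ± 0.25 and Igtp at -0.69 ± 0.24 did not pass (edgeR, adjusted p = 0.798, 0.860 and 0.0784). Irgm1 at -1.05 ± 0.27 and Igtp at -1.05 ± 0.22 were lower too without CAST/EiJ high-fat replicate 1 (edgeR, adjusted p = 0.0194 and 0.00803), and Irgm2 at -0.36 ± 0.20 did not pass (adjusted p = 0.218).

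Ms4a7 encodes a membrane-spanning protein of macrophages. CAST/EiJ held 3.55, 0.155 and 0.231 CPM on the high-fat diet, against 16.7, 18.4 and 12.8 CPM in C57BL/6J mice, 90.4, 118 and 82.3 CPM in NZO/HiLtJ, and 15.7, 10.3 and 11.9 CPM in WSB/EiJ. Replicate 1, the library nearly without Adipoq, was 18.4 times the mean of the other CAST/EiJ high-fat libraries and still below every library of the other strains. In the test its log2 difference was -4.46 ± 0.88 with all 12 libraries (edgeR, adjusted p = 0.00657) and -7.02 ± 0.36 without replicate 1 (adjusted p = 2.80e-06). The 6 macrophage markers summed to 187, 797 and 842 CPM in the CAST/EiJ high-fat libraries, within the 379 to 2636 CPM of the other strains for all but the first of these values. Among its relatives, Ms4a6c was higher in CAST/EiJ than the mean of the others by 0.93 ± 0.23 (edgeR, adjusted p = 0.0181). Its CAST/EiJ libraries, at 13.5 to 28.9 CPM, overlapped NZO/HiLtJ at 20.4 to 25.3 CPM, and C57BL/6J and WSB/EiJ lay at 6.36 to 9.91 CPM. Ms4a6d at 0.37 ± 0.30 and Ms4a6b at -0.16 ± 0.23 did not pass (edgeR, adjusted p = 0.435 and 0.670). In whole tissue, fewer cells of a type and less RNA per cell cannot be told apart.

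Aoah encodes the enzyme that removes acyl chains from bacterial lipopolysaccharide, and it was the gene nearest to both thresholds. WSB/EiJ held 0.361, 0.306 and 0.557 CPM on the high-fat diet, against 3.67, 7.82 and 4.40 CPM in C57BL/6J mice, 4.42, 6.65 and 5.81 CPM in NZO/HiLtJ, and 3.97, 4.81 and 3.15 CPM in CAST/EiJ. The groups did not overlap, and replicate 3 of WSB/EiJ was over 0.5 CPM. For Aoah the log2 difference was -3.63 ± 0.38 (edgeR, adjusted p = 0.000473). Macrophage markers summed to 379 to 486 CPM in these WSB/EiJ libraries. Against this, C57BL/6J had sums of 743 to 1055 CPM, NZO/HiLtJ of 1986 to 2636 CPM and CAST/EiJ of 187 to 842 CPM. Their part in the Aoah result was not tested.

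Among the enzymes and their regulators, Gchfr encodes the feedback regulator of GTP cyclohydrolase (Gch1), the first enzyme of tetrahydrobiopterin synthesis. C57BL/6J held 0.321, 0.126 and 0.0772 CPM on the high-fat diet, against 1.37, 1.77 and 1.97 CPM in NZO/HiLtJ, 0.735, 9.43 and 5.35 CPM in CAST/EiJ, and 5.43, 3.50 and 6.58 CPM in WSB/EiJ. On the standard diet C57BL/6J held 0.125, 0.0958 and 0.172 CPM, against 3.29, 3.68 and 4.09 CPM in NZO/HiLtJ, 24.9, 10.6 and 17.7 CPM in CAST/EiJ, and 22.6, 16.6 and 18.7 CPM in WSB/EiJ. C57BL/6J was lowest on both diets, and the expressing strains lay lower on the high-fat diet, where only 5 of their 9 libraries reached 3 CPM. The log2 difference in the high-fat libraries was -4.37 ± 0.84 (edgeR, adjusted p = 0.0170), and it missed the threshold without C57BL/6J high-fat replicate 2 (adjusted p = 0.102) or replicate 3 (adjusted p = 0.0853). Gch1 itself was at -0.74 ± 0.60 in C57BL/6J and did not pass (edgeR, adjusted p = 0.579).

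The promoter of Gchfr is shown because the reference assembly is that of C57BL/6J, the strain in which the gene was silent. The window, which spans the start of the gene over 300 bases, is chr2:119167538-119167837 on the + strand (RefSeq, GRCm38.p6). Capitals mark matches to CCAAT and GGGCGG on either strand, and TATAAA was searched for on both strands too.
Gchfr: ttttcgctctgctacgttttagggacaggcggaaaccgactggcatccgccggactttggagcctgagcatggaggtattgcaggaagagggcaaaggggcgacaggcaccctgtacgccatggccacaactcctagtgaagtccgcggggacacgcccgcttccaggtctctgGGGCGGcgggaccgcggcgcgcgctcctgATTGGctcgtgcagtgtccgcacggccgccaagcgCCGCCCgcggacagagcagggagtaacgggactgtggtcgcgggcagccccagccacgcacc

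This C57BL/6J window held 1 match to CCAAT, 2 to GGGCGG and 0 to TATAAA, with no overlap between matches. Of 32851 promoters of the same length, 37.4% held CCAAT, 35.7% GGGCGG and 13.6% TATAAA. The window of the silent strain thus carried letters that are common among promoters, which is a description of the sequence only. A promoter entry matched 7 of the 34 genes.

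Cyp4f16 encodes a cytochrome P450 of the 4F family, whose enzymes oxidise fatty acids and eicosanoids. WSB/EiJ held 0.144, 0.168 and 0.190 CPM on the high-fat diet, against 29.7, 32 and 26.4 CPM in C57BL/6J mice, 30.3, 32.3 and 31.9 CPM in NZO/HiLtJ, and 34.3, 22.3 and 30.8 CPM in CAST/EiJ. The 3 expressing strains overlapped one another, and all lay far above WSB/EiJ. Its log2 difference was -7.51 ± 0.21 (edgeR, adjusted p = 9.81e-09), with the smallest standard error of the 34 genes. On the standard diet WSB/EiJ held 0.158, 0.235 and 0.167 CPM, against 16.9 to 35.1 CPM in the other 9 libraries.

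The next gene along the chromosome, Cyp4f37, was also lower in WSB/EiJ. It was at 0 CPM in all 3 WSB/EiJ high-fat libraries, against 0.579 to 1.13 CPM in the other 9 (-8.74 ± 0.51, edgeR, adjusted p = 6.16e-05, a fitted value that depends on the prior count). Its level was too low to meet the rule. In libraries of the other strains, Cyp4f37 counts were 1.91% to 3.61% of Cyp4f16 counts. These genes share sequence, with 26.7% of the 31-base words of Cyp4f16 found in another gene, so reads may be split between them and both values are uncertain. Cyp4f17, another relative, was at -0.48 ± 0.26 and did not pass (edgeR, adjusted p = 0.238).

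The Cyp4f16 promoter is shown as the reference (C57BL/6J) form at a locus where a neighbouring pair of genes was low in WSB/EiJ. It is chr17:32536307-32536606 on the + strand (RefSeq, GRCm38.p6), with capitals for matches to CCAAT and GGGCGG on either strand.
Cyp4f16: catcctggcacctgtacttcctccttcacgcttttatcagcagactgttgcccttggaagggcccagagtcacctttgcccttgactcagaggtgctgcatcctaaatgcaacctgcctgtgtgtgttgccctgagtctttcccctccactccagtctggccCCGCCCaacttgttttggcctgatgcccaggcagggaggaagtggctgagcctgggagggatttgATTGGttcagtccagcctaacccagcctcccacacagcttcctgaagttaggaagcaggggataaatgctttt

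The window held 1 match to CCAAT, 1 to GGGCGG and 0 to TATAAA, which again are letters that many promoters hold.

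Fam213b encodes a prostamide and prostaglandin F synthase. CAST/EiJ held 0.188, 0.193 and 0.441 CPM on the high-fat diet, against 73.9, 85.7 and 27.4 CPM in C57BL/6J mice, 87.0, 71.4 and 80.0 CPM in NZO/HiLtJ, and 8.56, 11.9 and 8.05 CPM in WSB/EiJ. WSB/EiJ was thus well below the other expressing strains and well above CAST/EiJ. The log2 difference in CAST/EiJ was -7.02 ± 0.53 (edgeR, adjusted p = 2.17e-05).

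Methig1 is a methyltransferase-like relative of the Mettl7a genes. WSB/EiJ held 0.289, 0.214 and 0.217 CPM on the high-fat diet, against 7.17, 9.89 and 15.8 CPM in C57BL/6J mice, 3.97, 3.66 and 4.05 CPM in NZO/HiLtJ, and 7.83, 15.2 and 14.2 CPM in CAST/EiJ. The log2 difference was -5.13 ± 0.42 (edgeR, adjusted p = 9.25e-05), and the groups did not overlap. Of its 31-base words 62.0% occur in another gene, so its counts are uncertain. Mettl7a1 at -0.21 ± 0.32, Mettl7a2 at -0.61 ± 0.30 and Mettl7a3 at -1.03 ± 0.41 did not pass in WSB/EiJ (edgeR, adjusted p = 0.697, 0.197 and 0.123). Mettl7a2 at -0.74 ± 0.23 and Mettl7a3 at -1.17 ± 0.35 were lower in WSB/EiJ without CAST/EiJ high-fat replicate 1 (edgeR, adjusted p = 0.0350 and 0.0293). As a ratio of counts, Methig1 was 0.621% to 2.58% of Mettl7a2 in WSB/EiJ, against 54.1% to 58.9% in C57BL/6J, 56% to 62.3% in NZO/HiLtJ and 29.1% to 31.2% in CAST/EiJ. Within each of the 3 expressing strains the ratio kept to a narrow range over both diets, and it was lower in CAST/EiJ than in the other expressing strains.

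Tmem45b, a transmembrane protein gene, was the exception to the calls. On the high-fat diet CAST/EiJ held 34.5, 0.387 and 0.189 CPM, against 170, 143 and 121 CPM in C57BL/6J mice, 86.8, 69.9 and 69 CPM in NZO/HiLtJ, and 46.1, 24.6 and 55.2 CPM in WSB/EiJ. Replicate 1 lay 119.8 times above the mean of the other CAST/EiJ libraries and overlapped WSB/EiJ. The log2 difference was -2.88 ± 1.26 with all 12 libraries (edgeR, adjusted p = 0.143) and -7.94 ± 0.52 without replicate 1 (adjusted p = 1.13e-05). That library is the one with 4.75 CPM of Adipoq and the raised epithelial and smooth muscle markers, and the part of those tissues in the Tmem45b level was not tested. On the standard diet CAST/EiJ held 0.234, 0.373 and 0.181 CPM, against 12.8 to 113 CPM in the other 9 libraries.

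**Figure D3:**
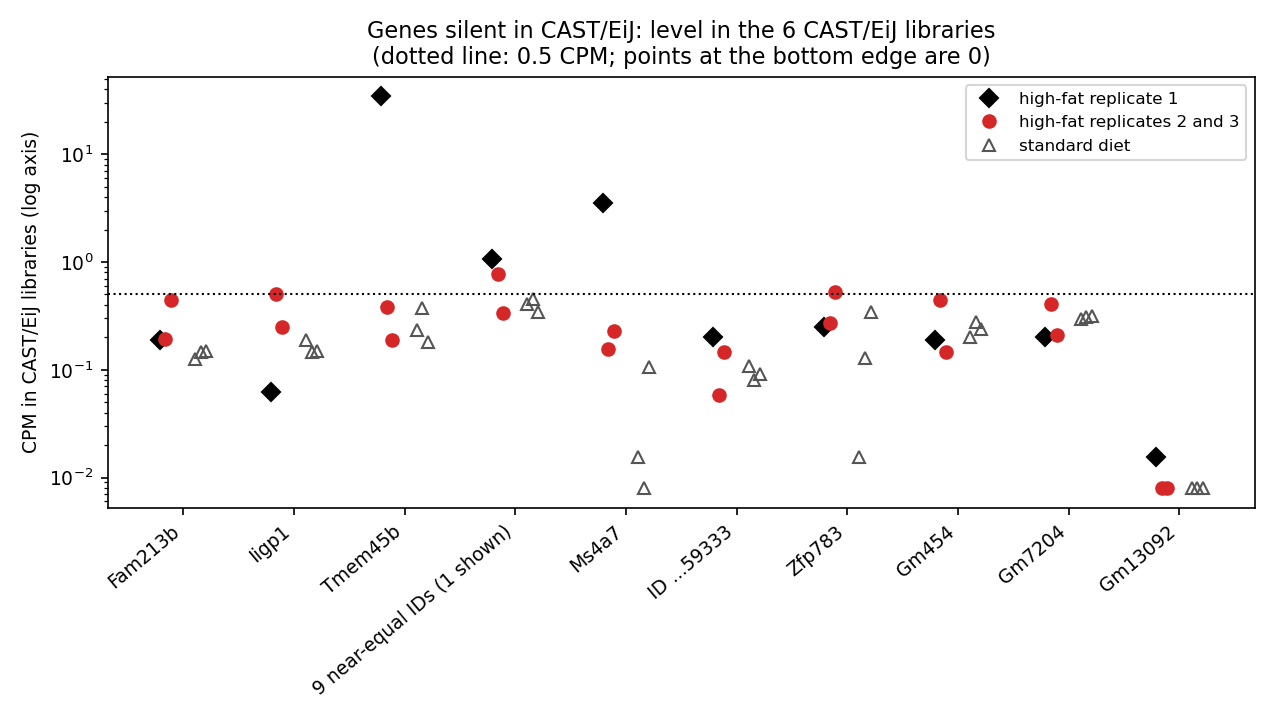
CPM on a log axis of the genes silent in CAST/EiJ, with 1 identifier shown for the set of 9, in the 6 CAST/EiJ libraries, high-fat and standard, with the threshold of 0.5 CPM as a dotted line. High-fat replicate 1 is far above the rest for Tmem45b (34.5 CPM) and Ms4a7 (3.55 CPM), and not for Fam213b (0.188 CPM) or Iigp1 (0.0625 CPM).

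Zfp783, annotated as a transcribed unprocessed pseudogene with a zinc finger name, and Gm454, a long intergenic RNA, completed the named CAST/EiJ genes. Zfp783 lay at 0.25, 0.271 and 0.525 CPM in CAST/EiJ on the high-fat diet, against 5.14, 7.29 and 14.1 CPM as the lowest, median and highest of the other 9 libraries (-4.43 ± 0.35, edgeR, adjusted p = 2.54e-05). Gm454 lay at 0.188, 0.445 and 0.147 CPM, against 0.672, 2.80 and 10.7 CPM in the other libraries (-3.20 ± 0.59, edgeR, adjusted p = 0.00452). Both were without overlap, but only 3 of 9 libraries of the other strains held Gm454 at 3 CPM or more on this diet. Of the 31-base words of Gm454, 28.7% occur in another gene. It aligned at 93.3% identity over 78.0% of its length to its neighbour Nxpe5, so its counts are uncertain. Nxpe5 had a mean of 13.6 CPM in CAST/EiJ and 8.89 CPM in the other strains on the high-fat diet.

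For 11 of the 12 processed pseudogenes a parent gene is given, and all of these parents are widely expressed genes. They are ribosomal protein genes for Gm12508, Gm11533 and Gm8482 (all Rpl29), Gm13268 (Rpl26), Gm15793 (Rpl12) and Gm6030 (Rps24). Gm7251 is a copy of Gapdh, the glycolytic enzyme gene, Gm7204 of Prdx1 and Tdpx-ps1 of Prdx2, both peroxiredoxins, Gm13092 of Snrpf, a subunit of the spliceosomal Sm ring, and Gm4853 of Atp5l, a subunit of ATP synthase. All 11 aligned to the parent over 90% or more of their length, with 90.77% (Gm8482) to 98.84% (Gm13092) identity. Between 37.4% and 83.5% of their 31-base words occur in another gene. Their counts are uncertain for that reason, since reads of 100 bases from a parent transcript may be shared out to the copy.

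Stretches of 100 bases of 5 copies are shown beside the parent (GENCODE M21 transcripts, GRCm38), because the few bases in capitals, where copy and parent differ, are all that tells their reads apart there. Each is the stretch with the most differences among those aligned without gaps to the coding sequence of the parent, so it is not typical. Over the whole alignment, with gaps not counted as differences, Gm8482 had 36 mismatches to Rpl29 in 455 aligned positions. Gm13092 had 3 to Snrpf in 258. Gm12508 on chromosome 4 and Rpl29 on chromosome 9 differed at 4 bases.
Gm12508: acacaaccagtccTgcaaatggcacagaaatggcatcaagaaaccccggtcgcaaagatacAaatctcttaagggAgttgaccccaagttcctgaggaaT
Rpl29: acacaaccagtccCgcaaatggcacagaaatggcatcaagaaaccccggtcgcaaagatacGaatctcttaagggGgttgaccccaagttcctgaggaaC
Gm8482 on chromosome 12 differed from Rpl29 at 17 bases.
Gm8482: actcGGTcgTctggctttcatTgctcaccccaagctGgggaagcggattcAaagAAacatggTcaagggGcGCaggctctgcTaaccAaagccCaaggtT
Rpl29: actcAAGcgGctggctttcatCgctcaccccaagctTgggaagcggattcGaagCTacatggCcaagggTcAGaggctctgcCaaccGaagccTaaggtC
Gm13268 on chromosome 2 differed from Rpl26 on chromosome 11 at 4 bases.
Gm13268: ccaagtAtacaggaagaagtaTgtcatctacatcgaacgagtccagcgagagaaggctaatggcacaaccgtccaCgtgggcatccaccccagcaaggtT
Rpl26: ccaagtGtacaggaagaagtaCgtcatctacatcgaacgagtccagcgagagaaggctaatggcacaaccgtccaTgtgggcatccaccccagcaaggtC
Gm13092 on chromosome 4 differed from Snrpf on chromosome 10 at 3 bases.
Gm13092: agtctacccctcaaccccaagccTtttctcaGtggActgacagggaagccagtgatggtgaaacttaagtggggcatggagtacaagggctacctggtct
Snrpf: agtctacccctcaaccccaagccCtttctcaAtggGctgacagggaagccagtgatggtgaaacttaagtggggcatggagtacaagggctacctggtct
Gm15793 on chromosome 1 differed from Rpl12 on chromosome 2 at 6 bases.
Gm15793: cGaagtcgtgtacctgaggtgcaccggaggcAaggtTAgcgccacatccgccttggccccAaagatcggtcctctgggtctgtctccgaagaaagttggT
Rpl12: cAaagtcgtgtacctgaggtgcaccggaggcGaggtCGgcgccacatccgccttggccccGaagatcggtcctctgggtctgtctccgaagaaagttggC

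The reference to which reads of each strain were aligned is not given in the sources used here. The parent genes were expressed in all 4 strains, the silent one included. Rpl29 lay at 174 to 232 CPM in the 6 C57BL/6J libraries, where Gm12508 and Gm11533 were silent, against 85.2 to 97.0 CPM in NZO/HiLtJ, 92.6 to 223 CPM in CAST/EiJ and 72.6 to 145 CPM in WSB/EiJ. A copy's silence was thus not a silence of its parent.

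Within expressing strains, the copies tracked their parents. Each copy was set against its parent as a ratio of counts, not corrected for length, in the 18 libraries of the 3 expressing strains. Gm12508 was 0.0942% to 0.159% of Rpl29 in C57BL/6J, against 8.43% to 12.7% in the 18 other libraries. Gm15793 was 0.0591% to 0.153% of Rpl12 in WSB/EiJ, against 7.38% to 8.58% elsewhere. Gm7251 was 0.0141% to 0.0205% of Gapdh in NZO/HiLtJ, against 0.296% to 0.349% elsewhere. For these 3 copies the ranges of the expressing strains overlapped. The coefficient of variation of the ratio was smaller than that of the copy's level for 9 of the 11 copies, with medians of 9.10% for the ratio and 30.2% for the level. The ratio shares its numerator with the level, and this is a description.

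The exceptions were Gm13268 and Gm7204. For these copies and for Gm8482 the ranges of the ratio were apart in 2 of the 3 pairs of expressing strains, and for the other 8 copies in 0. Gm13268 was 38.1% to 40.6% of Rpl26 in the 6 CAST/EiJ libraries, against 1.30% to 1.55% in C57BL/6J and 1.27% to 1.54% in WSB/EiJ, and 0.0328% to 0.0785% in NZO/HiLtJ, the silent strain. In those CAST/EiJ libraries Rpl26 itself was lower, at 115 to 296 CPM, against 350.4 to 646 CPM in C57BL/6J and 346 to 720 CPM in WSB/EiJ. Gm7204 was 0.0283% to 0.0528% of Prdx1 in CAST/EiJ, the silent strain, against 1.51% to 1.70% in NZO/HiLtJ, 0.652% to 0.886% in C57BL/6J and 0.709% to 0.837% in WSB/EiJ. Gm8482 was 0% to 0.0495% of Rpl29 in NZO/HiLtJ, the silent strain, against 2.74% to 3.00% in C57BL/6J, 3.77% to 5.33% in CAST/EiJ and 4.52% to 5.20% in WSB/EiJ. So the counts of a copy silent in 1 strain could also differ, relative to its parent, between the other strains. Whether the copy itself or the assignment of reads differed was not tested.

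**Figure D4:**
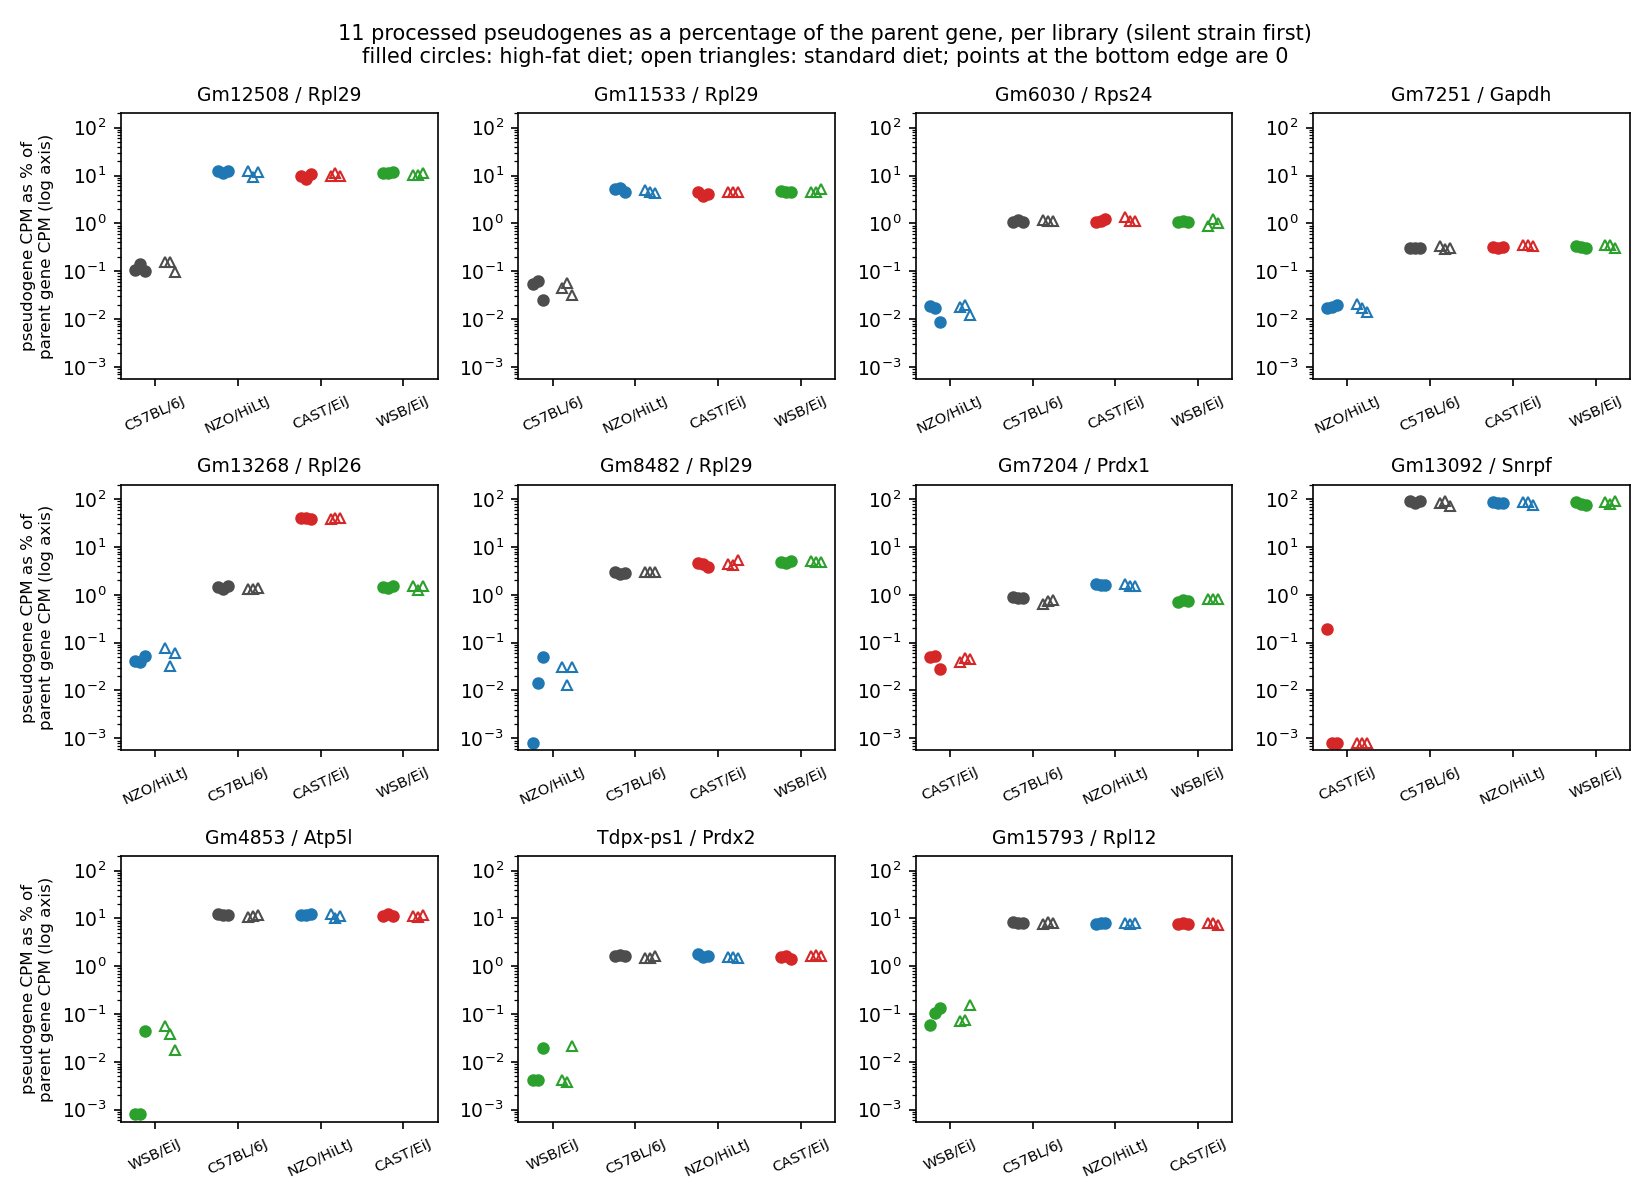
Each of 11 processed pseudogenes as a percentage of the CPM of its parent gene (log axis) in every library, 1 panel per pair, with the silent strain first, high-fat libraries as filled circles and standard-diet libraries as open triangles. The silent strain is apart in every panel, and in the panel of Gm13268 CAST/EiJ lies at 38.1% to 40.6% while C57BL/6J and WSB/EiJ lie at 1.27% to 1.55%.

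On the high-fat diet all 12 pseudogenes were called lower in their silent strain. Gm13092 had the largest difference, at -9.28 ± 0.58 on the log2 scale (edgeR, adjusted p = 6.86e-06), a fitted value at counts near 0. CAST/EiJ held 1 count of it in the 3 high-fat libraries together and 0 on the standard diet, where a floor of 3 counts over the group makes the level at least 286-fold lower than the mean of 4.47 CPM in the other strains. In the high-fat libraries the ratio of the other strains to CAST/EiJ was 801, with a 95% counting interval of 144 to 31650. Gm4853 had the lowest fitted difference of all genes tested in WSB/EiJ, at -9.13 ± 0.77 (edgeR, adjusted p = 0.000110), also at counts near 0. WSB/EiJ held 0, 0 and 0.0272 CPM on the high-fat diet, or 2 counts in the 3 libraries together. The other 9 libraries held 4.19, 6.16 and 8.49 CPM as the lowest, median and highest. The ratio of the other strains to WSB/EiJ was 644, with a 95% counting interval of 178 to 5320.

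The other pseudogenes held 4 to 84 counts over the 3 high-fat libraries of the silent strain, fewest for Gm8482, which is close to the floor. Gm8482 lay at 0, 0.0139 and 0.0440 CPM in NZO/HiLtJ, against 3.82, 5.26 and 10.2 CPM as lowest, median and highest of the other 9 (-8.11 ± 0.70, edgeR, adjusted p = 5.25e-05). Gm15793 lay at 0.332, 0.382 and 0.489 CPM in WSB/EiJ, against 20.8, 25.5 and 56.5 CPM (-6.25 ± 0.41, adjusted p = 1.94e-05). Gm13268 lay at 0.169, 0.167 and 0.205 CPM in NZO/HiLtJ, against 4.57, 9.41 and 120.0 CPM (-6.45 ± 0.38, adjusted p = 4.62e-06). None of these 3 overlapped. The remaining log2 differences were -7.21 ± 0.51 for Tdpx-ps1 and -4.49 ± 0.24 for Gm10167 in WSB/EiJ, -6.54 ± 0.40 for Gm6030 and -4.39 ± 0.28 for Gm7251 in NZO/HiLtJ, -5.81 ± 0.43 for Gm11533 and -5.76 ± 0.29 for Gm12508 in C57BL/6J, and -4.25 ± 0.30 for Gm7204 in CAST/EiJ.

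Without a symbol were 11 identifiers, and no role is given to them. In CAST/EiJ 9 of them had nearly equal counts in every library (within a fraction of 0.25 of one another), and 5 of the 9 had exactly equal counts. They may share the same reads, so the totals are also given with the set counted once. ENSMUSG00000081074 stands for the set, with 1.08, 0.773 and 0.399 CPM in CAST/EiJ on the high-fat diet, against 13.2, 17.8 and 31.3 CPM as the lowest, median and highest of the other 9 libraries. The log2 difference was -4.69 ± 0.31 (edgeR, adjusted p = 9.60e-06), and without overlap. This set makes up most of the CAST/EiJ identifiers that passed 0.5 CPM on the high-fat diet. ENSMUSG00000059333, outside the set, lay at 0.203, 0.0580 and 0.147 CPM in CAST/EiJ, against 9.06 to 20.04 CPM elsewhere. ENSMUSG00000072481 lay at 0.0289, 0.0458 and 0.0408 CPM in WSB/EiJ, against 4.10 to 8.13 CPM elsewhere.

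In the strains that expressed them, the genes did not share a direction with diet. The standard-diet libraries chose the genes, so diet differences are a description without a test. They are log2 fold changes of high-fat over standard libraries from an edgeR fit on all 24 libraries, and overlap is judged on CPM scaled by trimmed means (TMM). In C57BL/6J, 3 of 30 expressed genes (22 with the near-equal set counted once) were above in every high-fat library and 2 below, where 5.09% and 5.84% of all genes were. In NZO/HiLtJ, 5 of 30 (22 with the set once) were above and 6 below, beside 22.7% and 23.8% of all genes. In CAST/EiJ, 1 of 16 was above and 2 below, beside 9.88% and 10.2% of all genes, and without CAST/EiJ high-fat replicate 1 it was 1 above and 4 below, beside 15.1% and 15.7%. In WSB/EiJ, 12 of 26 were above and 4 below, beside 18.2% and 21.8% of all genes, and 4 of 18 were above when the near-equal set was counted once. The median log2 difference of the genes was 0.13, 0.11, 0.22 and 0.39 in these strains, and that of all genes 0.02, -0.01, 0.05 and 0.07. With the set counted once the medians were 0.13 in C57BL/6J, -0.01 in NZO/HiLtJ, 0.22 in CAST/EiJ and 0.23 in WSB/EiJ. In CAST/EiJ without replicate 1 the median was 0.01, and that of all genes -0.02. With CPM over library total, which lifts the median of all genes by 0.31 in WSB/EiJ and 0.18 in CAST/EiJ relative to TMM, 16 were above and 4 below in WSB/EiJ, beside 36.9% and 9.95% of all genes on that scale, and 2 above and 2 below in CAST/EiJ, beside 16.9% and 6.56%.

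Gchfr was the gene most often lower on the high-fat diet. Its log2 difference was -1.15 ± 0.60 in NZO/HiLtJ, -1.89 ± 0.61 in CAST/EiJ and -2.20 ± 0.61 in WSB/EiJ, and the diets did not overlap in any of the 3. Without CAST/EiJ high-fat replicate 1, which held 0.735 CPM, the difference in CAST/EiJ was -1.37 ± 0.43, and the diets did not overlap there either. Gm454 was also lower, at -1.58 ± 0.46 in NZO/HiLtJ and -2.76 ± 0.48 in WSB/EiJ. Its WSB/EiJ libraries held 1.27, 0.672 and 1.13 CPM on the high-fat diet, against 4.08, 7.85 and 4.92 CPM on the standard diet. The counts of Gm454 are uncertain, as given before.

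Higher on the high-fat diet was Ms4a7, with a log2 difference of 1.90 ± 0.65 in NZO/HiLtJ. Its libraries there held 90.4, 118 and 82.3 CPM on the high-fat diet, against 29.1, 19.4 and 27.5 CPM on the standard diet. The 6 macrophage markers summed to 1986 to 2636 CPM in the high-fat and 727 to 1107 CPM in the standard-diet NZO/HiLtJ libraries, and their part in the Ms4a7 difference was not tested.

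Tmem45b lay above without overlap in all 3 strains that express it, by 0.78 ± 0.95 in C57BL/6J, 1.01 ± 0.95 in NZO/HiLtJ and 1.24 ± 0.96 in WSB/EiJ. The fit behind these standard errors includes CAST/EiJ high-fat replicate 1, and without it they were 0.29, 0.30 and 0.30. The 8 epithelial markers summed to 236 to 886 CPM in WSB/EiJ on the high-fat diet and 20.3 to 48.7 CPM on the standard diet, against 7.98 to 13.9 CPM and 7.26 to 17.3 CPM in NZO/HiLtJ. Their part in the Tmem45b difference was not tested, and in NZO/HiLtJ the marker sums overlapped between diets.

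In NZO/HiLtJ the high-fat libraries were lower for Iigp1 (-0.92 ± 0.35), Methig1 (-0.82 ± 0.41) and Fam213b (-0.57 ± 0.36), none of which was apart in another expressing strain. With all libraries, the smallest diet differences were those of Tdpx-ps1 and Zfp783, at most 0.14 in size in any of their 3 expressing strains. Without CAST/EiJ high-fat replicate 1, Tdpx-ps1 was at -0.26 ± 0.35 in CAST/EiJ. The remaining high-fat libraries of CAST/EiJ then lay below its standard-diet libraries for Tdpx-ps1. Cyp4f16 differed by 0.01 ± 0.14 in C57BL/6J, -0.04 ± 0.14 in NZO/HiLtJ and 0.36 ± 0.14 in CAST/EiJ. Gm7251 was lower in CAST/EiJ at -0.74 ± 0.24 and in WSB/EiJ at -1.0 ± 0.24, while its ratio to Gapdh stayed between 0.296% and 0.349% as given before.

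**Figure D5:**
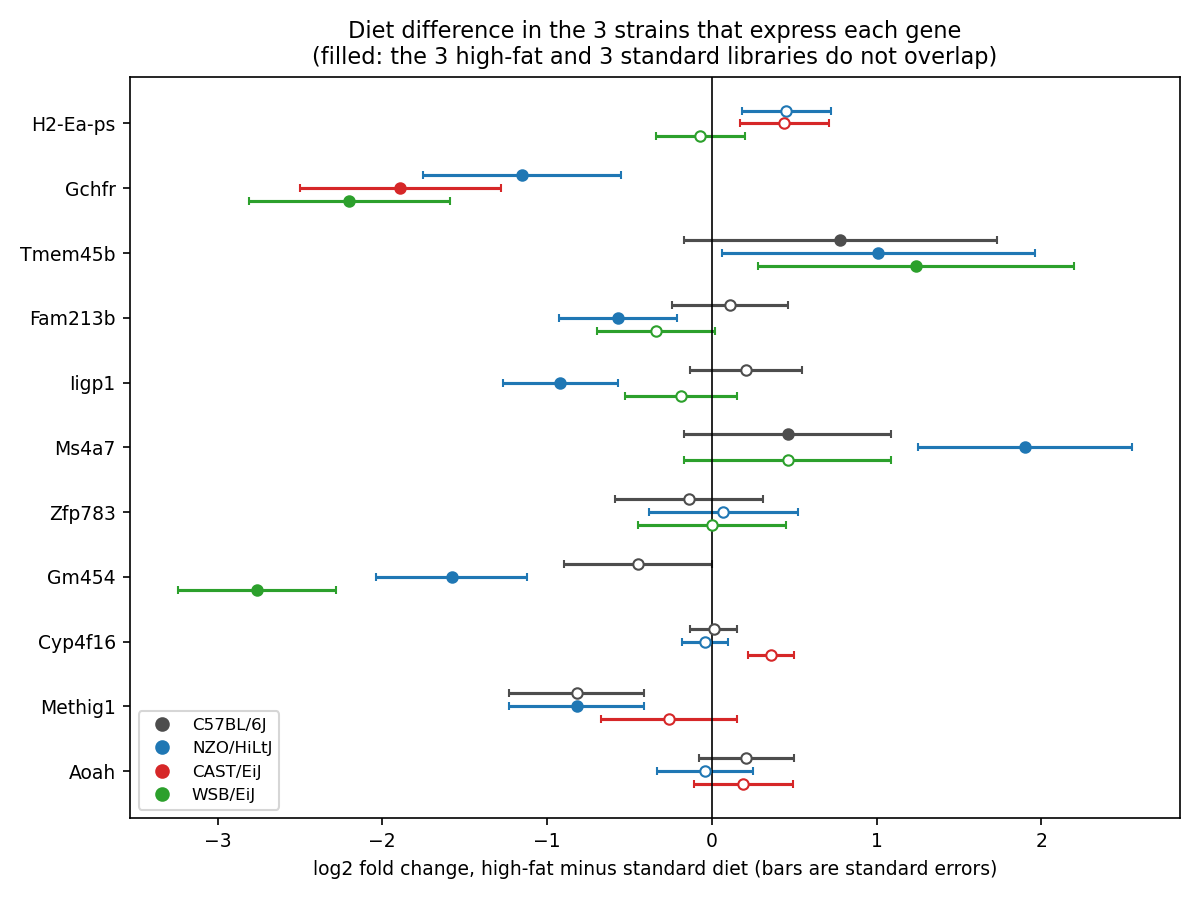
Log2 fold change of high-fat minus standard diet (horizontal axis, bars are standard errors) for the genes other than processed pseudogenes that have a symbol, in each of the 3 strains that express them. Filled symbols mark genes whose 3 high-fat and 3 standard-diet libraries do not overlap on TMM-scaled CPM, as for Gchfr (-1.15, -1.89 and -2.20) and Tmem45b (0.78, 1.01 and 1.24).

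No neighbouring gene met the rule, though some were lower in the same strain. The 23 annotated genes had 46 nearest neighbours that were tested in the high-fat libraries, of which 6 were lower in the silent strain, 4 higher and 36 did not pass. None of the 46 was itself one of the 34 genes. In CAST/EiJ 5 of 16 neighbours were lower, or 31.2%, beside 9.69% of all genes, and 2 higher. In WSB/EiJ it was 1 of 14 lower, beside 5.71%, while 0 of 8 were lower in C57BL/6J and 0 of 8 in NZO/HiLtJ. The counts depended on CAST/EiJ high-fat replicate 1. Without it 13 of the 46 were lower and 9 higher, with 8 of 16 lower in CAST/EiJ (50%, beside 14% of all genes), 4 of 14 in WSB/EiJ (28.6%, beside 15.5%), 1 of 8 in NZO/HiLtJ and 0 of 8 in C57BL/6J. Ms4a4c, beside Ms4a7, was at 0.55 with that library and did not pass (edgeR, adjusted p = 0.746), and was lower at -3.94 ± 0.67 without it (adjusted p = 0.00256). Nectin3, beside Gm7204, was at 0.32 with it and did not pass (edgeR, adjusted p = 0.639), and was lower at -0.74 ± 0.22 without it (adjusted p = 0.0357). Beside Iigp1, F830016B08Rik was lower in CAST/EiJ, with a log2 difference of -2.95 ± 0.48 (edgeR, adjusted p = 0.00224) and BC023105 at -3.65 ± 0.35 (adjusted p = 9.08e-05). Beside Fam213b, Mmel1, a membrane metalloprotease gene, was lower at -4.74 ± 0.89 (edgeR, adjusted p = 0.00511) and Tnfrsf14, a receptor of lymphocyte regulation, at -1.15 ± 0.26 (adjusted p = 0.0136). Thus both neighbours of Iigp1 and both of Fam213b passed in CAST/EiJ, and with Trat1 they were the 5 lower neighbours in that strain. Levels were low, with means of 0.178 CPM in CAST/EiJ and 1.52 CPM in the others for F830016B08Rik. For BC023105 the means were 0.104 and 1.52 CPM, and for Tnfrsf14 2.64 and 6.02 CPM. Mmel1 had means of 0.00521 and 0.574 CPM, so its difference is a fitted value at counts near 0. Trat1, a T cell adaptor gene beside Gm7204, was lower at -4.11 ± 0.68 (adjusted p = 0.00247), at a mean of 0.0134 CPM in CAST/EiJ and 0.264 CPM in the others. The 7 T and NK cell markers summed to 1.45 to 1.70 CPM in the CAST/EiJ high-fat libraries, against 4.06 to 21.7 CPM in the other strains, and their part in the Trat1 result was not tested. The remaining neighbour that was lower with all 12 libraries was Cyp4f37. H2-Eb1, Btla beside Gm6030 (2.99 ± 0.23), Rere beside Gm13092 (0.54 ± 0.11) and Mblac1 beside Gm454 (0.76 ± 0.23) were higher. On the high-fat diet 5 B cell markers summed to 12.5 to 14.4 CPM in NZO/HiLtJ, against 0.688 to 5.25 CPM in the other strains. The T and NK cell markers summed to 20.1 to 21.7 CPM there, against 1.45 to 11.6 CPM. The part of these cells in the Btla result was not tested.

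Most genes in the families of the silent genes did not pass with all 12 libraries. Counts here are high-fat calls of all members with the family's symbols, many of which are near-identical copies with uncertain counts. Of 31 histocompatibility genes tested in C57BL/6J, 6 were lower (19.4%, beside 1.41% of all genes), 7 higher (22.6%, beside 3.17%) and 18 did not pass. Their median log2 difference was -0.22. The counts were the same without CAST/EiJ high-fat replicate 1, beside 3.13% and 7.26% of all genes, and the median was 0.20. The lower ones beside H2-Ea-ps included H2-Q2 (-4.92 ± 0.78, edgeR, adjusted p = 0.00605). The class II genes H2-Aa (1.38 ± 0.21, edgeR, adjusted p = 0.00518) and H2-Ab1 (1.51 ± 0.20, adjusted p = 0.00248) were higher than the mean of the other strains. That mean includes low CAST/EiJ values of H2-Aa, at 25.8 to 50.2 CPM. H2-Aa lay at 475 to 604 CPM in NZO/HiLtJ, above the 320 to 442 CPM of C57BL/6J. For H2-Ab1 the highest library of the other strains, at 311 CPM, overlapped the 267 to 372 CPM of C57BL/6J. Of 16 interferon-induced GTPase genes in CAST/EiJ, 4 were lower (25%, beside 9.69% of all genes), 0 higher and 12 did not pass, with a median of -0.24. The count was 8 of 16 without CAST/EiJ high-fat replicate 1 (50%, beside 14%), with a median of -1.05. The 4 called with all 12 libraries were Iigp1, Tgtp2 (-2.57 ± 0.48), Tgtp1 (-1.83 ± 0.43) and Gvin1 (-1.65 ± 0.30).

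Of 72 cytochrome P450 genes in WSB/EiJ, 3 were lower (4.17%, beside 5.71% of all genes), 11 higher (15.3%, beside 9.61%) and 58 did not pass, with a median of 1.09. With CAST/EiJ high-fat replicate 1 left out, 8 of 75 were lower (10.7%, beside 15.5%) and 19 higher (25.3%, beside 20.3%). The 3 lower with all 12 libraries were Cyp4f16, Cyp4f37 and Cyp2r1 (-1.77 ± 0.44, edgeR, adjusted p = 0.0267), a vitamin D hydroxylase gene. The 8 epithelial markers, at 236 to 886 CPM in these WSB/EiJ libraries, lay at 7.98 to 97.3 CPM in C57BL/6J and NZO/HiLtJ and at 1008, 37.0 and 39.3 CPM in CAST/EiJ. Brain markers summed to 2217 CPM in WSB/EiJ replicate 2 and skin markers to 141 CPM in its replicate 3, against brain sums of 24.8 to 69.3 CPM and skin sums of 0.953 to 5.54 CPM in the other strains on this diet. Liver markers summed to 80.3 to 242 CPM in WSB/EiJ, against 6.65 to 164 CPM in the other strains. Some of the higher P450 genes were uneven between WSB/EiJ libraries, with 0.549 to 21.5 CPM for Cyp46a1, 0.260 to 99.4 CPM for Cyp4f15 and 0.0144 to 11.2 CPM for Cyp1a1. The part of these tissues in the P450 counts was not tested. Of 442 zinc finger genes in CAST/EiJ, 17 were lower (3.85%, beside 9.69% of all genes), 63 higher (14.3%, beside 9.05%) and 362 did not pass, with a median of 0.16. With that library left out, 41 of 446 were lower (9.19%, beside 14%) and 55 higher (12.3%, beside 14.5%), with a median of -0.05. Apart from predicted genes and clones, which held 12 of the 34, no other family searched by symbol held a silent gene. The ribosomal copies among the pseudogenes carry symbols of predicted genes and are counted with those.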

How the data were processed

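RNA-seq was made from poly(A) RNA of 24 fat pads, 1 library per mouse, and samples were grouped by the strain and diet in the labels. The authors deposited a table of expected counts per gene. The submitters' processing notes name CASAVA 1.8.0, RSEM 1.2.1, Bowtie 0.12.8 and the builds NCBIM37 and mm9, without their role or order. The deposited expected counts are whole numbers, and how they were rounded is not given in the sources used here. The authors also deposited an upper-quartile normalised signal, which equalled each count over the 75th percentile of the library's counts above 0 within 0.0005 and served as an alternative. Of 37991 identifiers 32919 (86.65%) matched a symbol, and 0 columns lacked a sample.

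The genes and lists were chosen with earlier results of these data known. CPM are counts over the library total. High-fat libraries were tested with edgeR 4.0.16 in R 4.3.3 (12 libraries, TMM, filterByExpr, 19501 genes, 8 residual degrees of freedom, 2-sided quasi-likelihood F test, Benjamini-Hochberg adjustment, threshold 0.05), each strain minus the mean of the other 3, and checked on simulated data. DESeq2 1.42.0, limma 3.58.1, other filters and scalings, other thresholds and leaving out each library were alternatives. Between libraries of 1 group, chi-square per degree of freedom was 23.3 to 1578, above counting error. Intervals are exact Poisson at 95% and cover counting error only. Copies were aligned with BLAST 2.17.0 (e-value up to 1e-10). Sequence and biotype come from GENCODE M21 (GRCm38) and RefSeq (GRCm38.p6), other builds than the files', so no other coordinates are given. Values are given for the 8 highest members per strain with a symbol that is no predicted gene, clone or pseudogene, members at 0.5 CPM or more on the high-fat diet, members near a threshold, in a listed family or not called. The pseudogenes and the partner and parent genes were named for their kind or known relation. The parent of 1 pseudogene is not reported here.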

Additional observations from a re-analysis of the deposited data

Results flagged for a closer look

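Gm7204, the copy of Prdx1 that was silent in CAST/EiJ, lay higher on the high-fat diet in C57BL/6J and lower in WSB/EiJ. Its C57BL/6J libraries held 4.67, 4.28 and 4.48 CPM on the high-fat diet, all above the 3.34, 4.15 and 3.93 CPM on the standard diet, with a log2 difference of 0.25 ± 0.20. Its WSB/EiJ libraries held 3.99, 3.96 and 3.85 CPM on the high-fat diet, all below the 5.77, 5.61 and 5.49 CPM on the standard diet, with a log2 difference of -0.83 ± 0.20. The diet difference in C57BL/6J minus that in WSB/EiJ was 1.08 on the log2 scale, and this difference was not tested. The log2 difference in NZO/HiLtJ was 0.20 ± 0.20, and the diets did not overlap. Of the 31-base words of Gm7204, 45.1% are shared with Prdx1, so its counts are uncertain. Gm7204 was 0.838% to 0.886% of Prdx1 on the high-fat and 0.652% to 0.775% on the standard diet in C57BL/6J. In WSB/EiJ it was 0.709% to 0.765% and 0.830% to 0.837% in the same order. The part of Prdx1 in these diet differences was not tested.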

How the results depend on the processing

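The number of genes depended on the thresholds. It was 34 as reported, 15 below 0.25 CPM, 50 below 1 CPM, 51 with 2 CPM or more in the other strains, 20 with 5 CPM or more and 19 with the same rule on the high-fat libraries. Leaving out each standard-diet library in turn gave 34 to 36 genes, and each high-fat library 19 to 23 for the rule on that diet. With TMM-scaled CPM 34 genes met the rule, 33 of them the same. Leaving out each high-fat library, the genes called lower numbered 3 to 4 of 4 in C57BL/6J, 4 to 4 of 4 in NZO/HiLtJ, 17 to 18 of 18 in CAST/EiJ and 8 to 8 of 8 in WSB/EiJ. Over the alternatives run, 606 of 612 single-gene results kept their direction and their side of the threshold and 0 reversed. Gchfr was the gene that lost its call, also under a minimum change of 1 on the log2 scale (edgeR, adjusted p = 0.0603). Tmem45b gained it with all 24 libraries in 1 fit (adjusted p = 0.0238), with limma on upper-quartile values (adjusted p = 0.00739) and without CAST/EiJ high-fat replicate 1, and the cause was not tested. The background moved more: genes called lower over all genes tested ranged from 61 to 871 in C57BL/6J, 171 to 3270 in NZO/HiLtJ, 526 to 3128 in CAST/EiJ and 126 to 3092 in WSB/EiJ. Leaving out CAST/EiJ high-fat replicate 1 from the counts of neighbours, families and diet was chosen after seeing the data, as was library-total scaling for diet. Depth set the silent threshold at 30.9 counts or more, so levels near 0 were measured with few counts. No paired analysis was possible because the labels give mouse numbers that no other group shares, and replicates were numbered in accession order.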
